A study of Mus musculus with 24 samples.

Results

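The insulin-like growth factor binding system was examined through 10 genes: Igf1, Igfals, Ghr and Igfbp1 to Igfbp7. Every array probe annotated to 1 of them was taken, which gave 22 probes of the 45281 on the array and 10 of its 19057 named genes. The study injected male C57BL/6J mice on a normal chow diet intraperitoneally with an antisense gapmer oligonucleotide directed at SOX6 or with a control oligonucleotide. Liver and epididymal white adipose tissue (EWAT, the fat depot attached to the epididymis) were taken 48 hours later. A gapmer is a short DNA strand with modified ends that leads a cellular nuclease to cleave the matching RNA. Each of the 4 groups held 4 animals: control liver and SOX6 liver, control EWAT and SOX6 EWAT. The animals are called C1 to C4 (control) and S1 to S4 (SOX6) after their labels. Both groups received an oligonucleotide, so no untreated tissue enters any comparison. The labels give no dose and no age.

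Growth hormone acts on the receptor Ghr in liver, which releases the growth factor IGF-1 into the blood. There most IGF-1 travels in a complex with a binding protein, IGFBP-3 or IGFBP-5, and the acid-labile subunit, which Igfals encodes. The 6 binding proteins encoded by Igfbp1 to Igfbp6 hold IGF with high affinity and control how much of it reaches the receptor, while the product of Igfbp7 is a related secreted protein with low affinity for IGF. In liver, Igfbp1 is known as a gene that insulin represses and fasting induces. Adipose tissue makes IGF-1 of its own, and several binding proteins there come from stromal and vascular cells.

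The 4 binding protein genes Igfbp1, Igfbp2, Igfbp3 and Igfbp5 lie in neighbouring pairs, and their promoter windows are shown because members of 1 pair had opposite levels in the tissues. In RefSeq's annotation of GRCm38.p6, Igfbp2 and Igfbp5 lie on chromosome 1 and Igfbp1 and Igfbp3 on chromosome 11, with 0 annotated genes between the members of each pair. Each window runs from 250 bases before the annotated transcription start to 50 bases after it and is written 5′ to 3′ on the gene's strand. The windows are chr11:7197537-7197836 (plus strand) for Igfbp1, chr11:7213874-7214173 (minus strand) for Igfbp3, chr1:72824230-72824529 (plus strand, 1 of 2 annotated starts) for Igfbp2, and chr1:72874816-72875115 (minus strand) for Igfbp5. Capitals mark matches, on either strand, to 5 motifs.
Igfbp1: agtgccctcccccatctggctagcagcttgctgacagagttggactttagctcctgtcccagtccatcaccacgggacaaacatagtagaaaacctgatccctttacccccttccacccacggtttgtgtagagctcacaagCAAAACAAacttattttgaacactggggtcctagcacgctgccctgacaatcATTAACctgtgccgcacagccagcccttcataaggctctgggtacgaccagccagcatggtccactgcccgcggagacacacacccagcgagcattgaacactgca
Igfbp3: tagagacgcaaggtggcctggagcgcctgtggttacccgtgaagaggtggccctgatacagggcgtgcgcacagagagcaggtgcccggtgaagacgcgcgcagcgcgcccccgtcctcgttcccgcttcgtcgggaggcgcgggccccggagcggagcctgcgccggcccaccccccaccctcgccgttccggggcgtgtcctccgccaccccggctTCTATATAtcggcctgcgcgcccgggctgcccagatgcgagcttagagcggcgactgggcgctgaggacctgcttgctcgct
Igfbp2: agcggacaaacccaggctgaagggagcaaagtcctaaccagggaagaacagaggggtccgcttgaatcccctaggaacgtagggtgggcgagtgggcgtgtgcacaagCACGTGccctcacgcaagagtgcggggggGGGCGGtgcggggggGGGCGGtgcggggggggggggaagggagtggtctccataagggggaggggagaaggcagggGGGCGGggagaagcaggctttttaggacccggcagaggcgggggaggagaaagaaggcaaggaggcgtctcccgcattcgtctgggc
Igfbp5: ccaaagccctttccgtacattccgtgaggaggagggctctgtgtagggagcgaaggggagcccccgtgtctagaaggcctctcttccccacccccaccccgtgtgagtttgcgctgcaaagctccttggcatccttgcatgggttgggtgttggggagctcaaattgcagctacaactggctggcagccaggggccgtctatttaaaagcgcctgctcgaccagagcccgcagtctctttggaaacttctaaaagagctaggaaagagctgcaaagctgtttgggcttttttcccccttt
The motifs were CAAAACAA (the core of an insulin response element), GTTAAT (part of the site of the liver factor HNF1), TATANA (the TATA box), GGGCGG (the GC box) and CACGTG (an E-box). Igfbp1 held 1 match to the insulin response element core, beginning 108 bases before the start, and 1 to the HNF1 motif, 56 bases before it. Among 32817 RefSeq promoter windows of the same length, 2.51% held the first motif and 7.1% the second. Igfbp3 held 2 overlapping matches to the TATA box, 32 and 30 bases before the start, against 24.7% of all windows with any. Igfbp2 held 3 matches to the GC box and 1 to the E-box, which 35.6% and 7.15% of all windows hold. The Igfbp5 window held no match to the 5 motifs. These matches describe the letters of the windows only. Guanine and cytosine made up 71.7% of the Igfbp3 window, 67% of the Igfbp2 window, 56.3% of the Igfbp5 window and 54.3% of the Igfbp1 window, against a median of 52.7% over all windows.

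The 24 arrays were Illumina bead arrays, 14 of liver and 10 of EWAT, with 8 animals per tissue and repeat arrays averaged per animal. A probe was called detected at a detection p-value below 0.05, and 32.9% to 36.4% of probes were detected per liver array and 41.5% to 45.9% per EWAT array. The number of animals, 4 per group, limits the precision. Of the 5 Sox6 probes, 1 was detected, and its position relative to the sequence that the gapmer targets is not known, so it is a weak check of the knockdown. Its log2 level in EWAT was 5.45 to 6.19 in the controls and 4.94 to 5.74 in the SOX6 animals, which overlap, and in liver it was detected in 3 of 4 controls and 1 of 4 SOX6 animals. The tissue labels were checked against markers. Averaged per sample, 10 genes of hepatocytes lay between 12.08 and 12.31 in the livers and between 4.43 and 5.2 in EWAT. The average of 9 fat cell genes lay between 10.62 and 11.31 in EWAT and between 4.81 and 5.12 in the livers. The defining fat cell genes Plin1, Lep and Fabp4 were detected in 0 liver animals, and the hepatocyte genes Alb, Ahsg and Cps1 in 0 EWAT animals. Other genes of the lists were detected in both tissues. In EWAT these were Hnf4a in all 8 animals, Apoc3 in 5, Serpina1a in 3, and Apoa1 and Ttr in 2 each. In liver they were Pparg in all 8 animals, Lipe in 2, and Adipoq and Cidec in 1 each. In 4 EWAT samples other tissue stood out. Ciliated and duct epithelium markers averaged 6.92 in C3 and 6.87 in S3 against 4.39 to 5.04 in the other EWAT samples. Epididymis markers averaged 6.87 in S2 and 6.75 in S4 against 4.49 to 5.08, and smooth muscle markers 10.87 and 10.42 against 6.53 to 7.7. The EWAT results below were therefore also computed without these samples.

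In liver 17 member probes of 9 genes passed the detection filter (detected in at least 3 animals of the tissue), and in EWAT 17 probes of 9 genes did. The Igfbp6 probe was detected on 0 liver arrays and the Igfbp1 probe on 0 EWAT arrays. Between tissues 18 probes, covering all 10 genes, were tested. The 4 remaining probes, all of Igfbp7, were detected on 0 arrays, and Igfbp7 is represented by its first probe alone. Probes of a gene are numbered by falling mean level. Levels of different probes are not set against each other, since a probe's brightness depends on its sequence.

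The system was divided between the tissues. In control animals Igf1, Igfals, Igfbp1, Igfbp2 and Igfbp4 were higher in liver, while Ghr, Igfbp5, Igfbp6 and Igfbp7 were higher in EWAT, and Igfbp3 did not pass the test. The differences spanned 5.7 log2 units in favour of liver (Igfbp2) to 5.09 in favour of EWAT (Igfbp5 probe 1). In the controls 16 of 18 member probes were called at an adjusted p below 0.05 (limma, Benjamini-Hochberg over 21133 probes), 8 higher in liver and 8 lower, against a background of 62.5% of all probes called (26.3% higher and 36.2% lower). The SOX6 animals gave the same split, 16 of 18 probes called with 8 in each direction, against 64.5% of all probes (28.1% higher and 36.5% lower). Of the 10 genes, 9 were called in each treatment, against 65.9% of all genes in controls (26.1% higher and 39.8% lower) and 67.9% in SOX6 animals (27.8% higher and 40% lower). The groups did not overlap for 16 of 18 probes in each treatment, against 57.2% and 57.6% of all probes. At an unadjusted p below 0.05 the counts were 16 and 17 of 18, against 65.6% and 67.4%. A call on its own was thus common. Large differences were less so: 3.78% of all probes differed by 4 log2 units or more in each treatment. Among the member probes, both of Igfbp2, all 3 of Igfbp5 and that of Igfbp6 did so. The median difference over members was 0.2 in controls and -0.36 in SOX6 animals, beside -0.11 and -0.1 over all probes. In bulk tissue, fewer cells of a type and less RNA per cell cannot be told apart.

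**Figure D1:**
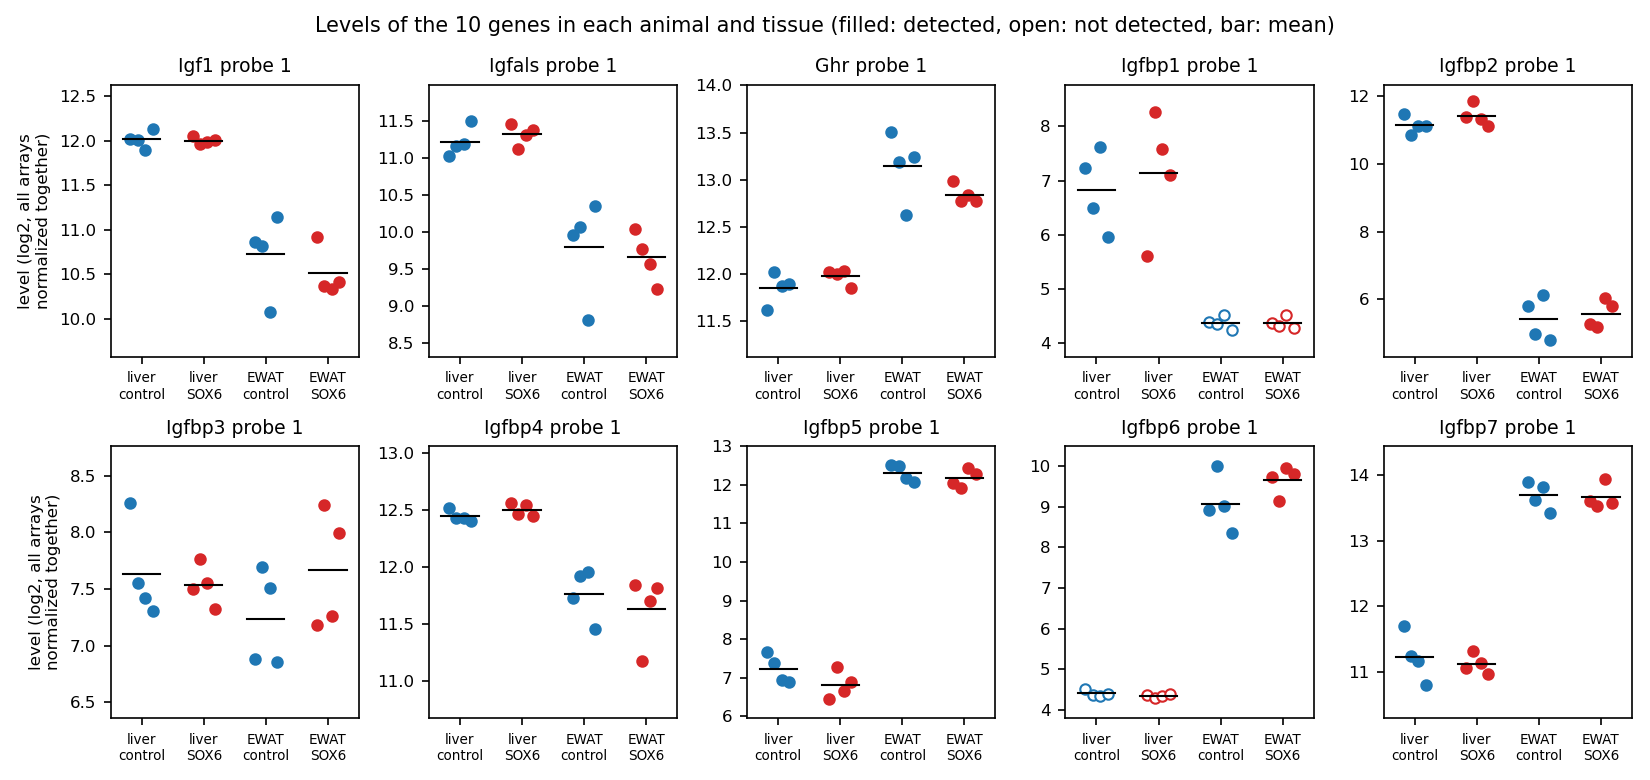
Log2 level of the first probe of each of the 10 genes (y axis, all 24 arrays normalized together, own scale per panel) in each animal of the 4 groups; filled points are detected, open points not detected, and bars are means of 4 animals. Igfbp2 lies at 10.85 to 11.83 in liver and 4.81 to 6.12 in EWAT, Igfbp5 lies the other way, and Igfbp1 and Igfbp6 are each undetected in the tissue where they are low.

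Ghr, the growth hormone receptor, was lower in liver than in EWAT. On the scale of all arrays together, probe 1 read 11.62, 12.02, 11.87 and 11.89 in livers C1 to C4. It read 13.51, 13.19, 12.62 and 13.24 in EWAT samples C1 to C4. The highest liver value lay below the lowest EWAT value, in C3. The difference was -1.29 log2 units in controls (SE 0.14, adjusted p = 4.19e-07 by limma) and -0.87 in SOX6 animals (adjusted p = 4.02e-05). Probe 2 differed by -1.14 and -0.72 and probe 3 by -0.95 and -0.87. The call of probe 3 was lost when the liver and EWAT of some labels were left out. In controls it differed by -0.6 without C2 (adjusted p = 0.12) and by -0.92 without C4 (adjusted p = 0.08). In SOX6 animals it differed by -0.51 without S3 (adjusted p = 0.267) and by -0.86 without S4 (adjusted p = 0.0712). Without C4 or S4 the size of the difference changed little. The Ghr differences depended on the scaling of the tissues. When each array was shifted to a common 75th percentile, the median of all probes moved from -0.11 to 0.11 in controls and from -0.1 to 0.08 in SOX6 animals. Ghr probe 1 then differed by -0.5 in controls (adjusted p = 0.0197) and by -0.01 in SOX6 animals (adjusted p = 0.981), which was no longer called. Probe 2 differed by -0.11 in SOX6 animals (adjusted p = 0.54), and probe 3 by -0.82 in each treatment, still called. For probe 1, relative to the median of all probes, the differences were -0.61 and -0.09. Under that scaling 54.4% of called probes in controls and 53.8% in SOX6 animals were higher in liver, against 42.1% and 43.5% with quantile normalization.

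Igf1, the growth factor itself, was higher in liver. Probe 1 read 12.02, 12.01, 11.89 and 12.13 in control livers and 10.86, 10.82, 10.07 and 11.14 in control EWAT. Every liver value exceeded every EWAT value, and the EWAT values were more spread, with C3 lowest. The difference was 1.29 (SE 0.17, adjusted p = 5.38e-06), or 2.44-fold, in controls and 1.49 (adjusted p = 9.46e-07) in SOX6 animals. Probe 2, annotated to the same gene, gave a smaller difference, 0.45 (adjusted p = 0.0441) and 0.6 (adjusted p = 0.0103). These calls were lost when the liver and EWAT of some labels were left out. Without C3 the probe 2 difference in controls was 0.22 (adjusted p = 0.0964), and without C4 its adjusted p was 0.0689. Without S4 the difference in SOX6 animals was 0.5 (adjusted p = 0.0654). Scaled to the 75th percentile, probe 1 differed by 1.91 and 2.1.

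Igfals, whose product stabilizes the circulating complex, was also higher in liver. Its probe read 11.02, 11.16, 11.18 and 11.49 in control livers against 9.96, 10.06, 8.81 and 10.35 in control EWAT. The groups did not overlap, and C3 was again lowest in EWAT. The difference was 1.42 (SE 0.25, adjusted p = 9.16e-05), or 2.68-fold, in controls and 1.66 (adjusted p = 1.73e-05) in SOX6 animals. Without the EWAT of C3 and S3 it was 1.09 in controls. All 5 EWAT arrays of each treatment detected the Igfals probe.

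Igfbp2, a binding protein secreted by hepatocytes, had the largest positive difference among the members. Probe 1 read 11.46, 10.85, 11.11 and 11.12 in control livers and 5.81, 4.98, 6.12 and 4.81 in control EWAT. The difference was 5.7 (SE 0.27, adjusted p = 6.02e-12), or 52.1-fold, in controls and 5.83 (adjusted p = 4.59e-12) in SOX6 animals, and probe 2 gave 5.7 and 5.74. Within the 4 chips, each of which held both tissues, probe 1 differed by 5.06 to 6.45 in controls. Igfbp2 was still detected in EWAT by probe 1 on all 5 control arrays and by probe 2 on 2 of them.

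Igfbp1 was measured in liver alone, at 7.23, 6.5, 7.62 and 5.96 in C1 to C4 and 5.6, 8.27, 7.58 and 7.11 in S1 to S4. In EWAT it was not well above background on any of the 10 arrays, with measured levels of 4.25 to 4.52, so a bound is given. Against the lowest detected signal of each EWAT array, Igfbp1 was at least 4.33-fold higher in control liver and at least 5.54-fold in SOX6 liver. The adjusted p values of 8.24e-05 and 2.16e-05 (limma) belong to the measured differences, not to the bounds. The neighbouring gene Igfbp3 had no such difference, as described below.

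Igfbp4, which binds IGF-1 until the protease PAPP-A cleaves it, was higher in liver by less. Probe 1 read 12.52, 12.43, 12.43 and 12.4 in control livers and 11.73, 11.92, 11.95 and 11.45 in control EWAT. Every liver lay above every EWAT sample. The difference was 0.68 (SE 0.13, adjusted p = 0.000234) in controls and 0.88 (adjusted p = 1.73e-05) in SOX6 animals, and probe 2 gave 1 and 1.23. Under 75th percentile scaling probe 1 differed by 1.47 and 1.66.

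Igfbp5, a binding protein of stromal cells that also attaches to the extracellular matrix, showed the reverse of its neighbour Igfbp2. Probe 1 read 7.66, 7.38, 6.95 and 6.88 in control livers and 12.5, 12.49, 12.17 and 12.06 in control EWAT. The gap between the groups was many times their spread. The difference was -5.09 (SE 0.19, adjusted p = 3.1e-13), so EWAT was 34-fold higher in controls, and -5.36 (41-fold) in SOX6 animals. Probes 2 and 3 gave -4.97 and -4.96 in controls and -5.75 and -5.43 in SOX6 animals. All 14 liver arrays detected all 3 probes.

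Igfbp6, which prefers IGF-2 to IGF-1, read 8.92, 9.99, 9.02 and 8.36 in control EWAT and 9.73, 9.13, 9.96 and 9.8 in SOX6 EWAT. In liver it was not well above background on any of the 14 arrays, with measured levels of 4.3 to 4.51. Against the lowest detected liver signal, Igfbp6 was at least 16.2-fold higher in control EWAT and at least 23.3-fold higher in SOX6 EWAT. The adjusted p values of 3.59e-11 and 6.35e-12 (limma) belong to the measured differences, not to the bounds. Among the controls C2 was highest, and the 8 EWAT values all stood far above the liver measurements.

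Igfbp7, which is abundant in vascular cells, read 11.7, 11.24, 11.17 and 10.8 in control livers and 13.9, 13.62, 13.81 and 13.42 in control EWAT. The difference was -2.46 (SE 0.16, adjusted p = 4.26e-10), or 5.5-fold higher in EWAT, and -2.54 in SOX6 animals. Under 75th percentile scaling it was -1.75 and -1.78. The markers of the cells that this gene is known from also differed between the tissues, in both directions. In control liver 8 of 9 fibroblast and stellate cell genes were lower and 1 higher. Of 10 endothelial genes 7 were lower and 2 higher. Among all genes 39.8% were lower and 26.1% higher. Over all animals, the lower endothelial gene Cdh5 read 6.52 to 7.49 in liver and 9.34 to 9.99 in EWAT. Emcn, also lower, read 5.72 to 7.07 and 9.55 to 9.99. The higher endothelial gene Clec4g read 10.47 to 10.88 in liver and 4.35 to 4.83 in EWAT. Stab2, also higher, read 7.89 to 8.54 and 4.48 to 4.96. The part of these cells in the Igfbp5, Igfbp6 and Igfbp7 differences was not tested.

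Igfbp3, the main carrier of circulating IGF-1, passed the test with neither probe. Probe 1 read 8.26, 7.55, 7.42 and 7.31 in control livers and 6.88, 7.69, 7.51 and 6.86 in control EWAT, and the groups overlapped. The difference was 0.4 (95% interval -0.15 to 0.95, adjusted p = 0.194) in controls and -0.14 (-0.69 to 0.42, adjusted p = 0.664) in SOX6 animals. Probe 2 gave 0 and -0.58 (adjusted p = 0.992 and 0.0628). In SOX6 animals probe 2 read 5.68, 6.12, 6.03 and 5.92 in liver and 6.35, 6.82, 6.34 and 6.56 in EWAT, and here the groups did not overlap (95% interval of the difference -1.13 to -0.02, two-sided exact permutation p = 0.0286, the smallest possible). In controls the difference of probe 2 was -0.5 without the liver and EWAT samples labelled C1 (adjusted p = 0.0346). With 75th percentile scaling the probe 2 difference in SOX6 animals was -0.81 (adjusted p = 0.0165). Without the EWAT of S2 and S4, the SOX6 samples highest in Igfbp3, probe 1 differed by 0.31 in SOX6 animals.

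**Figure D2:**
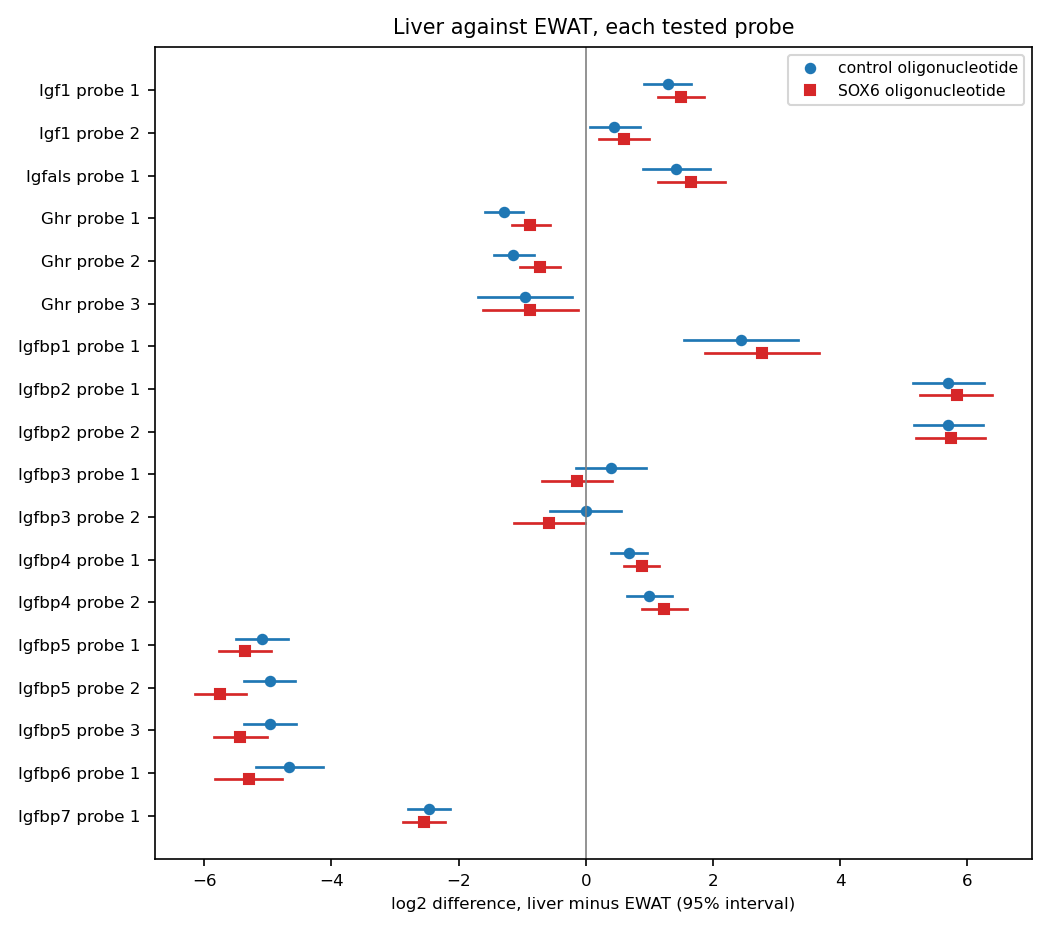
Log2 difference, liver minus EWAT (x axis), for the 18 tested probes (y axis) in control animals (circles) and SOX6 animals (squares), with 95% intervals from the limma fit and a line at 0. The 3 Igfbp5 probes lie at -5.09 to -4.96 in controls and at -5.75 to -5.36 in SOX6 animals. The Igfbp2 probes lie near 5.7 in both treatments, and the Igfbp3 intervals lie near or across 0.

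Each tissue contrast used its own animals, so the treatments could be set side by side. The response in liver minus the response in EWAT was called for 0 of 18 member probes (limma), against 0.0189% of all probes and 0.0175% of all genes. At an unadjusted p below 0.05 it was 2 of 18, Ghr probe 1 (0.42) and Igfbp5 probe 2 (-0.78), against 6.11% of all probes, and adjusted p ran from 0.756 to 0.994. A difference between the treatments in the tissue pattern was thus not shown, which does not show that the patterns are alike.

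Against control liver, no member passed the test in SOX6 liver. In liver 0 of 17 member probes were called (limma, adjusted over 15087 probes), against 0.199% of all probes (30 probes, with 0.0133% of all probes higher and 0.186% lower). Of 9 genes 0 were called, against 0.229% of all genes (0.0115% higher and 0.218% lower). At an unadjusted p below 0.05 there were 3 of 17, against 9.68% of all probes. The log2 differences ran from -0.87 to 0.36, with 9 positive and 8 negative and a median of 0.01, and no member's groups separated without overlap, as 5.64% of all probes did. Adjusted p ran from 0.196 to 0.988. Levels in the following paragraphs are on the scale of each tissue's own arrays.

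**Figure D3:**
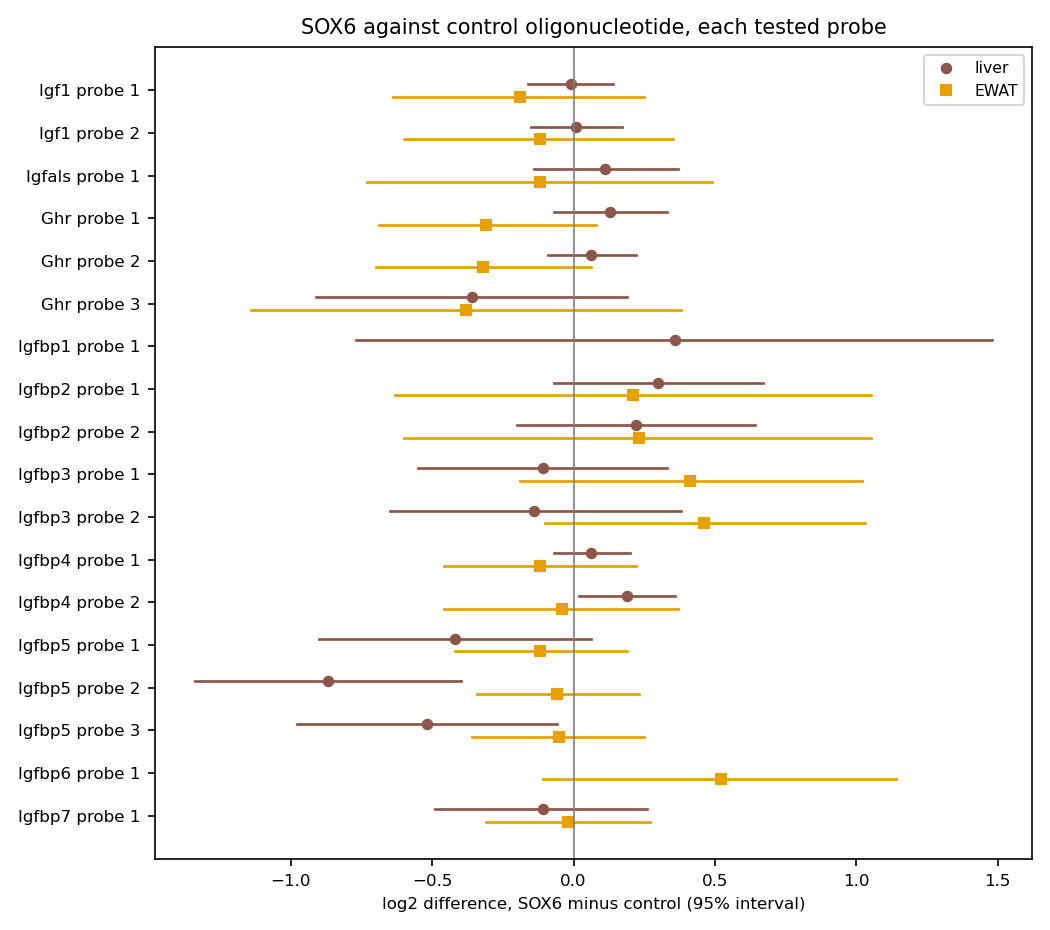
Log2 difference, SOX6 minus control (x axis), for each tested probe (y axis) in liver (circles) and EWAT (squares), with 95% intervals from the limma fit and a line at 0. In liver the interval is -0.16 to 0.14 for Igf1 probe 1, -0.15 to 0.17 for Igf1 probe 2 and -0.77 to 1.48 for Igfbp1. The liver intervals of Igfbp5 probes 2 and 3 lie below 0, and that of Igfbp4 probe 2 lies above 0.

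None of the probes of the hormone receptor, growth factor and complex subunit was called in liver. Igf1 probe 1 read 12.05, 12.04, 11.91 and 12.16 in controls and 12.08, 11.99, 12.01 and 12.03 in SOX6 animals. The difference was -0.01 (95% interval -0.16 to 0.14, adjusted p = 0.975). An effect beyond 0.16 log2 units in either direction lay outside this interval. Igfals read 10.96, 11.12, 11.14 and 11.49 against 11.45, 11.07, 11.29 and 11.36, a difference of 0.11 (adjusted p = 0.795). Ghr probe 1 read 11.63, 12.05, 11.89 and 11.92 against 12.05, 12.03, 12.06 and 11.87, a difference of 0.13 (adjusted p = 0.701). Ghr probe 3 went the other way, by -0.36 (95% interval -0.91 to 0.19, adjusted p = 0.703), and by -0.93 to 0.33 within the 4 chips. Igfbp4 probe 2 differed by 0.19 (unadjusted p = 0.0342, adjusted p = 0.466 by limma) and probe 1 by 0.06 (adjusted p = 0.781). Igfbp2 probe 1 differed by 0.3 (adjusted p = 0.623 by limma) and probe 2 by 0.22 (adjusted p = 0.76). Within the 4 chips Igfbp2 probe 1 differed by 0.07 to 0.77 and probe 2 by -0.15 to 0.82.

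Igfbp5 was the member with the largest difference in liver. Probe 2 read 7.1, 6.86, 6.66 and 6.05 in controls and 5.86, 6.14, 5.56 and 5.62 in SOX6 animals. Only S2 exceeded the lowest control, C4. The means were 6.67 ± 0.45 (SD, n = 4) and 5.8 ± 0.27 (SD, n = 4), a difference of -0.87 (95% interval -1.34 to -0.4, unadjusted p = 0.00177, adjusted p = 0.196 by limma). The two-sided exact permutation p was 0.0571, and the smallest that 4 against 4 animals allow is 0.0286. Probe 1 differed by -0.42 (adjusted p = 0.584) and probe 3 by -0.52 (adjusted p = 0.458). All 3 probes were lower in SOX6 liver, and they are annotated to 1 gene, so they are not independent measurements. Within the 4 chips probe 2 differed by -1.01, -1.06, -0.63 and -1.15. Probe 1 differed by -1.13 to 0.45 and probe 3 by -0.85 to 0. With chip as a term, the repeat arrays kept apart and animal as a random block, probe 2 reached an adjusted p of 0.0138 (difference -0.94). In that fit 175 of all probes were called against 30. Without control C4 its adjusted p was 0.0447 (difference -1.08), and without the other animals, 1 at a time, 0.175 to 0.51.

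Control liver C1 carried the highest values of several members. It was highest among the 8 livers for all 3 Igfbp5 probes, both Igfbp3 probes and Igfbp7. Igfbp3 probe 1 read 7.92 in C1 and 6.9 to 7.38 elsewhere, and Igfbp7 read 11.71 in C1 and 10.73 to 11.31 elsewhere. C1 also had the highest mean of 10 fibroblast and stellate cell genes (7.08 against 6.53 to 6.85), of 10 endothelial genes (7.71 against 7.17 to 7.41) and of 9 macrophage genes (7.99 against 6.64 to 7.42). The part of these cells in the Igfbp3, Igfbp5 and Igfbp7 values was not tested. Without C1 the difference was 0.11 for Igfbp3 and 0.06 for Igfbp7, against -0.11 for each with all animals. That of Igfbp5 probe 2 was -0.73.

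**Figure D4:**
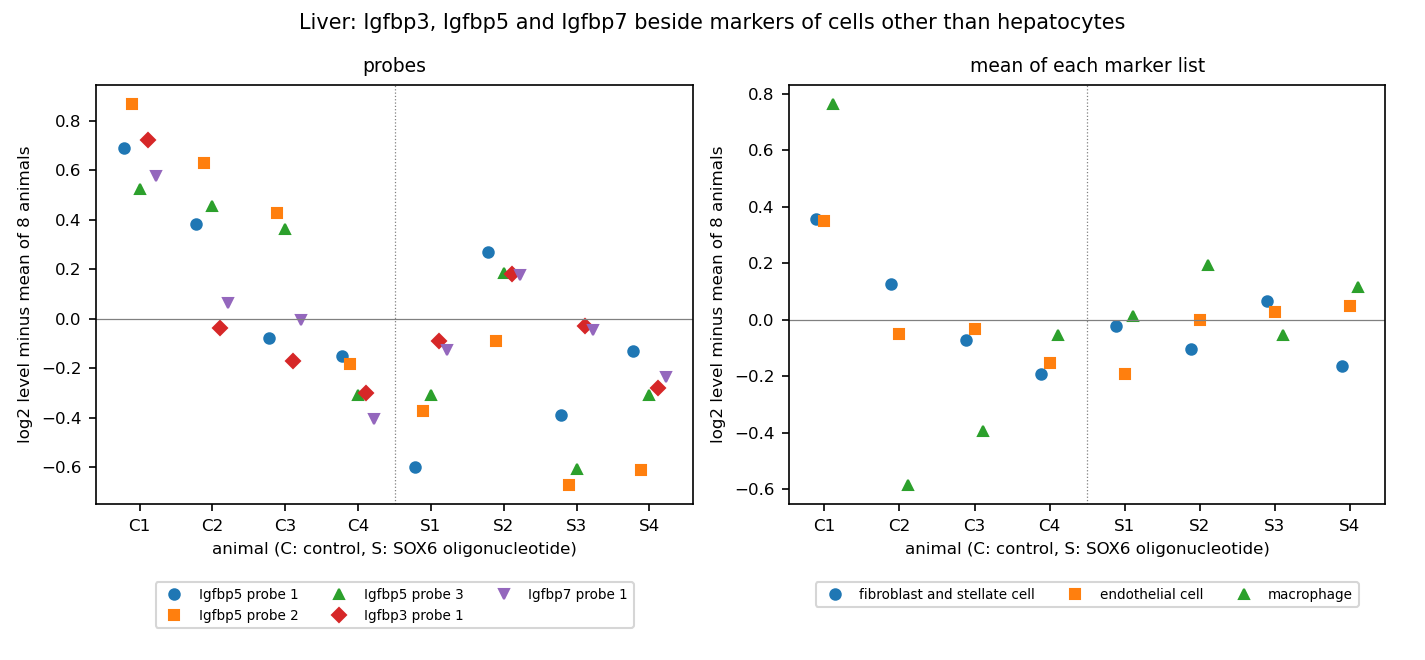
Left, log2 level of 5 probes of Igfbp3, Igfbp5 and Igfbp7 in each of 8 livers minus the mean of the 8 (y axis); right, the same for the mean of 3 marker lists. Animals C1 to C4 received the control and S1 to S4 the SOX6 oligonucleotide, and C1 is highest in every series shown.

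Igfbp1, the insulin-repressed gene, varied most among the livers of a group. It read 6.82, 6.05, 7.23 and 5.52 in controls and 5.24, 7.92, 7.19 and 6.69 in SOX6 animals. The lowest and the highest of all 8 values both came from SOX6 animals. The difference of 0.36 had a 95% interval of -0.77 to 1.48 (adjusted p = 0.878), so a rise of 1 log2 unit lay within the interval. The SD within groups was 0.97, which 0.286% of the 8731 genes exceeded, against a median of 0.18 over all genes and 0.08 for Igf1. Repeat arrays of an animal differed by 0.12 to 0.8 for this probe. The 3 genes whose deviations from the group means were most like those of Igfbp1 over the 8 livers were Ttc14 (Pearson's r = 0.954, Spearman's rho = 0.929), Rora (r = 0.941, rho = 0.952) and Tubb1 (r = 0.933, rho = 0.881). These values are a description chosen from 8731 genes in the same arrays.

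In EWAT the SOX6 gapmer called 0 of 17 member probes (limma, adjusted over 20160 probes), against 0% of all probes. At an unadjusted p below 0.05 there were 0 of 17, against 4.88% of all probes. Differences ran from -0.38 to 0.52, with 5 positive and 12 negative, and adjusted p from 0.864 to 0.993. No member's groups separated, against 2.59% of all probes. Beside this, all 9 fat cell markers were lower in SOX6 EWAT, with 0 called and a median of -0.31. All 7 tested smooth muscle markers were higher, with 0 called and a median of 1.27. The mean of the smooth muscle list was high only in S2 (10.87) and S4 (10.42). It was 6.93 in S1 and 7.43 in S3, within the 6.53 to 7.7 of the controls.

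Igf1, Igfals and Ghr probe 1 had their lowest EWAT value in the same sample. Igf1 probe 1 read 10.96, 10.93, 10.26 and 11.2 in controls and 11.01, 10.52, 10.48 and 10.56 in SOX6 animals. Igfals read 10.16, 10.25, 9.14 and 10.5 against 10.23, 9.99, 9.82 and 9.53. Ghr probe 1 read 13.45, 13.12, 12.53 and 13.17 against 12.92, 12.68, 12.76 and 12.68. That sample was C3, the control with ciliated and duct markers. Ghr probes 2 and 3 were instead lowest in S4, at 10.96 and 8.9. The differences were -0.19 for Igf1, -0.12 for Igfals and -0.31 for Ghr probe 1 (adjusted p = 0.911, 0.972 and 0.864). Without C3 and S3 they were -0.33, -0.39 and -0.49, with adjusted p of 0.522, 0.528 and 0.503.

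Igfbp6 had the largest positive difference in EWAT. It read 9.24, 10.19, 9.34 and 8.73 in controls and 9.96, 9.43, 10.16 and 10.01 in SOX6 animals, and C2 was the highest of all. The difference was 0.52 (95% interval -0.11 to 1.14, adjusted p = 0.864). Within the 4 chips it ranged from -0.03 to 1.31.

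Igfbp3 probe 1 in EWAT read 7.33, 8.09, 7.93 and 7.31 in controls and 7.62, 8.62, 7.69 and 8.38 in SOX6 animals. The highest values were in S2 and S4, the samples with epididymis and smooth muscle markers. The difference of probe 1 was 0.41 (adjusted p = 0.867), and -0.01 without S2 and S4. Since S2 and S4 held the highest values, leaving them out had to lower the difference. Probe 2 differed by 0.46 with all samples (adjusted p = 0.864 by limma). Its difference without S2 and S4 is not given, so the -0.01 holds for probe 1 alone. The part of the other tissue in Igfbp3 was not tested.

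Igfbp2 in EWAT read 6.25, 5.24, 6.58 and 5 in controls and 5.65, 5.5, 6.49 and 6.26 in SOX6 animals with probe 1. The 2 highest values were in C3 and S3, with the highest ciliated and duct markers, though C1 and S4 were close. Probe 1 differed by 0.21 and probe 2 by 0.23 (adjusted p = 0.96 and 0.953 by limma). Igfbp2 had the largest SD within groups of the members in EWAT, 0.64, against a median of 0.23 over 10935 genes. The genes most like it over the 8 samples were Lbh (Pearson's r = 0.976, Spearman's rho = 0.952), Khdc4 (r = 0.966, rho = 0.952) and Itgbl1 (r = 0.955, rho = 0.857), a description from the same arrays. Igfbp4, Igfbp5 and Igfbp7, all with SDs of 0.24 or less, differed by -0.12, -0.12 and -0.02 in their first probes.

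**Figure D5:**
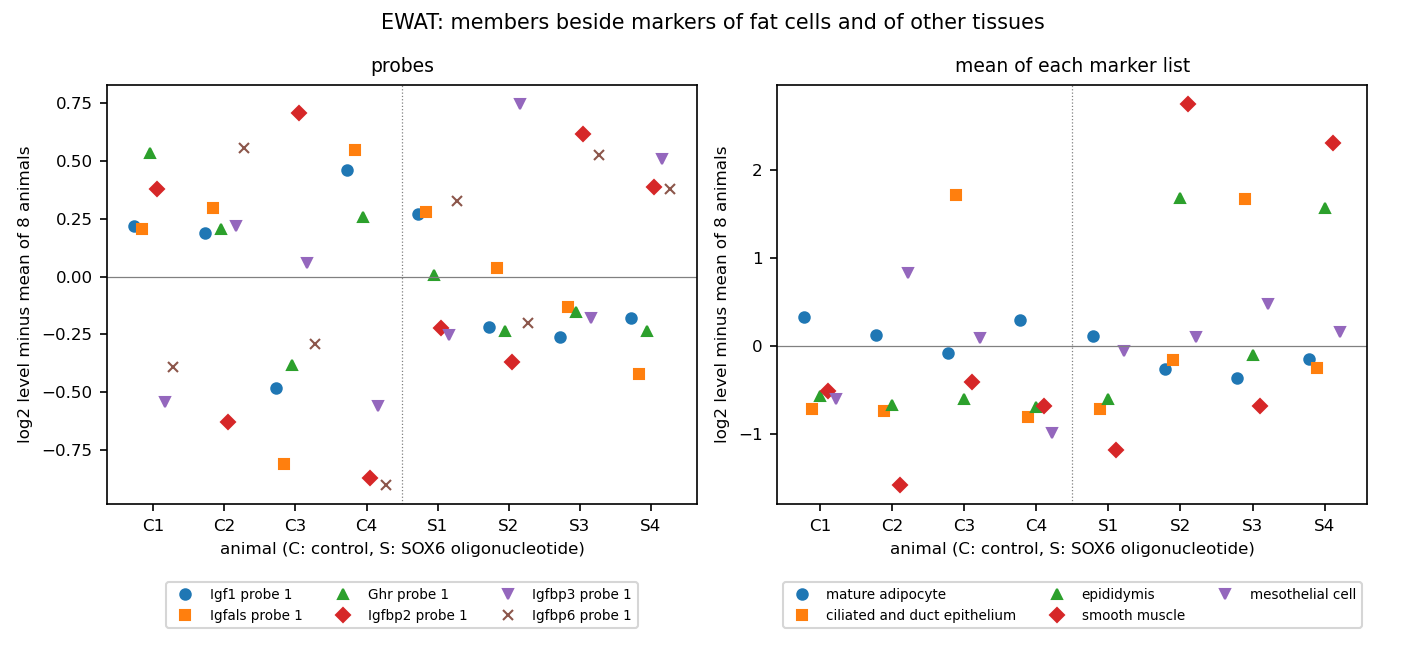
Left, log2 level of 6 probes in each of 8 EWAT samples minus the mean of the 8 (y axis); right, the same for the mean of 5 marker lists. Igf1, Igfals and Ghr are lowest or near lowest in C3, Igfbp3 is highest in S2 and S4, and S2 and S4 carry the highest smooth muscle and epididymis markers.

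The other genes of the pathway were counted over lists of related function, and the counts are read against the 65.9% of all genes called between the tissues of controls (26.1% higher and 39.8% lower in liver). Between the tissues of controls, IGF ligand and receptor genes gave 0 higher and 3 lower in liver of 4 tested. Igf2, the second IGF, was lower by -4.08 (adjusted p = 1.45e-09) and Igf1r, the receptor that IGF-1 activates, by -2.04 (adjusted p = 9.52e-06). Igf2 was detected on 4 and Igf1r on 2 of the 8 control liver arrays, so these differences are measured against levels largely near background. Growth hormone signalling gave 2 higher and 4 lower of 10. Socs2, a feedback inhibitor that growth hormone induces, was higher in liver by 1.38 (adjusted p = 6.22e-05), and Ptpn6, a phosphatase, by 1.26 (adjusted p = 3.95e-05). Of 12 insulin and IGF signalling genes 3 were higher and 5 lower. Grb10, an adaptor that dampens insulin and IGF-1 receptor signals, differed by -2.87 (adjusted p = 1.96e-11) and Pik3r1, the regulatory subunit of PI3-kinase, by -2.3 (adjusted p = 8.09e-07).

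Of 9 genes for IGFBP proteases and their inhibitors, 2 were higher in liver and 6 lower, against 26.1% and 39.8% of all genes. Plg and F2, the zymogens of plasmin and thrombin made by hepatocytes, were not well above background in EWAT. They were at least 405-fold and 403-fold higher in liver (adjusted p = 5.85e-22 by limma for both measured differences). Of 6 IGFBP-related genes 0 were higher and 2 lower. They were Ccn5 at -2.1 (adjusted p = 0.00268), detected on 1 of 8 control liver arrays and so measured against background there, and Ccn1 at -1.52 (adjusted p = 0.0121), detected on 6 of 8. Of 10 insulin-repressed and fasting genes, 5 were higher and 3 lower. G6pc, the last enzyme of glucose release, differed by 7.07 (adjusted p = 4.42e-10) and was detected on 3 of 5 control EWAT arrays. Tat, which degrades tyrosine, was not well above background in EWAT. It was at least 5.06-fold higher in liver (adjusted p = 1.61e-10 by limma for the measured difference).

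With the SOX6 gapmer, 0 genes of these 6 lists were called in liver and 0 in EWAT (limma), where 0.229% and 0% of all genes were called. In liver Pck1, which commits oxaloacetate to glucose synthesis and is repressed by insulin as Igfbp1 is, read 9.04 ± 0.53 in controls and 9.74 ± 0.4 in SOX6 animals (SD, n = 4 each), a difference of 0.7 (adjusted p = 0.396 by limma). Tat differed by 0.48 (adjusted p = 0.451), and 7 of the 10 genes of that list were positive with a median of 0.13. Bcl6, a repressor that growth hormone represses, differed by -0.48 (adjusted p = 0.657) and Jak2, the kinase bound to Ghr, by -0.18 (adjusted p = 0.679). The 2 genes of smallest p in each other list were not called either, with differences of Igf2r 0.13 and Insr 0.06, Foxo1 0.29 and Pik3ca 0.2, Ctsd 0.17 and Mmp2 -0.22, and Ccn1 0.34 and Ccn2 -0.25. In EWAT the genes of smallest p included Grb14, an inhibitor of the insulin receptor, at -0.53, Ptpn6 at 0.53, Jak2 at 0.29 and Mmp2 at 0.42 (adjusted p = 0.864 for each). Insr and Igf1r differed by -0.1 and 0.32, Grb10 by 0.22, Stc1, an inhibitor of the PAPP-A protease, by 0.54, and Ccn4 and Kazald1 by 0.62 and 0.31. Ppargc1a differed by -0.54 and Irs2 by -0.31.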

How the data were processed

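Per the labels' protocols, total RNA was extracted with Trizol and column clean-up and hybridised to Illumina bead arrays. The authors deposited background-subtracted, non-normalized signal intensity with a detection p-value per probe, made with GenomeStudio per the submitters' processing notes, whose version is not given in the sources used here. The deposited series matrix holds the authors' log2 values, whose sorted columns match each other as after quantile normalization. It served as an alternative. Signals were normalized with limma's neqc (offset 16), per tissue for treatment and over all 24 arrays for tissue comparisons. Repeat arrays were averaged per animal. A probe was tested if detected (p below 0.05) on every array of an animal in at least 3 animals of a tissue, of either tissue for tissue comparisons. limma 3.58.1 in R 4.3.3 (lmFit, eBayes with trend, two-sided) was used, with Benjamini-Hochberg adjustment over all tested probes and a threshold of 0.05. The scripts were tested on simulated data. A gene is represented by its tested probe with the highest mean. For a probe below background, the bound used the lowest detected signal of each array. The named genes are all member probes, then per pathway list the 2 genes of smallest p in the liver, EWAT and control tissue comparisons, and the 3 genes most like the most variable member. Probe symbols came from the platform annotation, updated by Entrez ID to RefSeq (34807 of 34885 probes with 1 gene matched, 18 named several genes and 10378 none). All 10 members had a promoter window in RefSeq (GRCm38.p6). The members, lists, motifs and tests were chosen with earlier results of these data known. The labels do not say whether equal numbers in liver and EWAT mark the same animal, nor that the replicates are separate cohorts, so p-values measure the spread between these animals.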

Additional observations from a re-analysis of the deposited data

Results flagged for a closer look

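Of 68 probe and group combinations of 4 animals examined for a value far from the other 3, 4 had one, and chance gives about 1 in 20. In SOX6 liver, Igf1 probe 2 read 10.42 in S3 while the next value was 10.53, and Ghr probe 1 read 11.87 in S4 while the next was 12.03. In SOX6 EWAT, Igf1 probe 1 read 11.01 in S1 while the next was 10.56. In control EWAT, Igf1 probe 2 read 9.63 in C3 while the next was 10.52. The last belongs to the EWAT sample with the highest ciliated and duct markers, and the part of that tissue in it was not tested.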

How the results depend on the processing

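With chip as a fixed term, arrays not averaged and animal as a random block, 1 liver member probe was called, and without control C4 also 1, in both cases Igfbp5 probe 2. Leaving out 1 liver animal gave 0 to 1 member probes called. With 1 probe per gene, 9 of 10 tested were called between tissues in controls and 9 in SOX6 animals, since fewer probes were tested. Counts of all probes called in liver moved from 30 to 175 in that fit, which changes the chip term, the averaging and the block together, 75 with the replicate block, 19 without the trend, and 15, 17 and 15 without C2, S3 or S4. The count over all probes for the difference of responses moved from 4 to 17 in the same fit, 2 with the authors' values, 2 with 75th percentile scaling, 2 with 1 probe per gene, 0 with the replicate block or no filter, and 0 to 4 with 1 animal number left out. Without EWAT samples C3, S2, S3 and S4 it was 9, and 1 probe was called in EWAT. The other 158 counts of member probes or genes called stayed within 1.5 times the main value.

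The labels do not say whether the replicate numbers pair the samples, and low correlations cannot exclude it. Same-numbered control and SOX6 samples correlated at -0.02 to 0.33 in liver and -0.09 to 0.58 in EWAT. Liver and EWAT of a shared label correlated at -0.05 to 0.21. The best match had the same number for 2 of 4 pairs in liver and 2 of 4 in EWAT. Between the tissues it had the same label for 5 of 8. With the replicate block 0 member probes were called in liver (smallest adjusted p = 0.0682), 0 in EWAT, 16 and 16 between tissues in controls and SOX6 animals, and 0 for the difference of responses.

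Several small treatment differences, none of them called, turned sign. Liver Igf1 was 0.01 in the fit with chip, single arrays and animal block. Without EWAT samples S2 and S4 (chosen after the data were seen), Igfals was 0.02, Igfbp3 -0.01, Igfbp4 0.003 and Igfbp7 0.09, and the SOX6 tissue difference of Igfbp3 was 0.31. Without C3, S2, S3 and S4, EWAT Igfbp4 was 0.13 and that Igfbp3 difference 0.35. Leaving out 1 animal at a time gave, in liver, -0.06 to 0.03 for Igf1, -0.03 to 0.86 for Igfbp1, -0.23 to 0.11 for Igfbp3 and -0.27 to 0.06 for Igfbp7. In EWAT it gave -0.41 to 0.04 for Igfals, -0.05 to 0.48 for Igfbp2, -0.21 to 0.01 for Igfbp4 and -0.11 to 0.05 for Igfbp7, and for the SOX6 tissue difference of Igfbp3 -0.29 to 0.04. The SOX6 tissue difference of Ghr was -0.01 with 75th percentile scaling and lost its call. The cause of these shifts was not tested. Without the 4 EWAT samples 16 and 15 member probes were called between tissues.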
